A study of Homo sapiens with 4 samples.

Results

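The late-discovered human miRNAs numbered miR-3115 to miR-3691 were followed on 4 miRNA arrays, 1 for each stable transfectant of 2 colonic adenocarcinoma lines. HT-29 cells carried an EGFP vector with an shRNA to Ascl2, a transcription factor of intestinal stem cells (shRNA-Ascl2/HT-29), or the same vector without an insert (shRNA-Ctr/HT-29), and the LS174T line was treated alike (shRNA-Ascl2/LS174T; shRNA-Ctr/LS174T). All 4 were kept under G418, each ratio also sets a vector with an insert against one without, and the methods, which describe the arrays for HT-29, do not say which of the stable clones gave the RNA. The arrays do not measure Ascl2 itself. Members were taken by name alone: an hsa-miR name with a number in that range and an optional letter and arm, star forms and the 3 GC-rich probes miR-3195, miR-3648 and miR-3656 left out. This gave 168 of the 1276 named human miRNAs of the array. A further 2 probes whose name is shared by several miRNAs and 3 star forms lie in the same number range and were not members.

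A miRNA is cut from a hairpin transcript by Drosha and Dicer, and the mature strand guides Argonaute to messenger RNAs, mainly through its seed, the bases 2 to 8. Numbers were given in the order of discovery. The miRNAs with low numbers were mostly found by cloning and are often conserved across vertebrates, such as the miR-200 family of epithelial cells, whereas many of those with high numbers came from deep sequencing, are found in few species and were later withdrawn or renamed. Some of them lie within genes of other small RNAs, above all small nucleolar RNAs (snoRNAs), which guide the chemical modification of ribosomal RNA.

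RefSeq (GRCh38.p14) gave a mature sequence under the same name for 105 of the 168 members. The sequences below are those of members whose signals are described in the following paragraphs, with the seed in capitals. The first 3 are among the 8 brightest members by mean scaled intensity, the next 2 to members above the limit on 1 array of each line only, and the last 4 to members that were lower or higher in shRNA-Ascl2 cells of a line.
hsa-miR-3175: cGGGGAGAgaacgcagugacgu
hsa-miR-3651: cAUAGCCCggucgcugguacauga
hsa-miR-3178: gGGGCGCGgccggaucg
hsa-miR-3146: cAUGCUAGgauagaaagaaugg
hsa-miR-3666: cAGUGCAAguguagaugccga
hsa-miR-3654: gACUGGACaagcugaggaa
hsa-miR-3685: uUUCCUACccuaccugaagacu
hsa-miR-3176: aCUGGCCUgggacuaccgg
hsa-miR-3196: cGGGGCGGcaggggccuc
The hairpin of miR-3175 lies at chr15:92904399-92904475 (plus strand) within CHD2, a chromatin remodeller, and that of miR-3651 at chr9:92292458-92292547 (minus strand) within IARS1, an aminoacyl-tRNA synthetase, where it overlaps the snoRNA gene SNORA84. The hairpin of miR-3654 lies at chr7:133034860-133034915 (minus strand) within CHCHD3, a mitochondrial protein, that of miR-3146 at chr7:19705358-19705436 (minus strand) within POLR1F, a subunit of RNA polymerase I, and that of miR-3666 at chr7:114653345-114653455 (plus strand) within FOXP2, a transcription factor. The mature sequences of miR-3178 (chr16:2531979-2531995, minus strand), miR-3685 (chr12:95309928-95309949, plus strand), miR-3176 (chr16:543336-543354, plus strand, within CAPN15) and miR-3196 (chr20:63238788-63238805, plus strand, within BIRC7) complete the set. The tables used give genes without exons, so exon and intron were not told apart. Of the 132 members with a gene entry, 73 lie within a protein-coding gene on the same strand, which held for 13 of the 26 above the limit on all 4 arrays and for 46 of the 89 above it on none.

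Most late-discovered miRNAs gave no signal above the limit of detection in either cell line. A signal is the fluorescence of a spot minus the local background, averaged over the spots of a probe, and the limit was 50. In shRNA-Ascl2/HT-29 cells, 45 of the 168 members were above 50 (26.8%, 95% Wilson interval 20.7 to 33.9), and in shRNA-Ctr/HT-29 cells 50 (29.8%, 23.4 to 37.1). In shRNA-Ascl2/LS174T cells, 50 were above it (29.8%, 23.4 to 37.1), and in shRNA-Ctr/LS174T cells 55 (32.7%, 26.1 to 40.2). The intervals run over probes and cover no spread between arrays, of which there was 1 per condition. The same members were concerned on most arrays: 41 (24.4%) were above 50 on all 4 arrays, 109 (64.9%) on none and 18 on 1 to 3 arrays. The values lay close to the limit for few members, with 5 to 10 of them within 10 units of it on each array. For shRNA-Ascl2/HT-29 cells, the member just inside it was miR-3165 at 50.75 and the one just outside was miR-3201 at 44.5.

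The share was lower than that of the human miRNAs numbered below 400 on every array and close to that of probes for viral miRNAs, whose targets are not human. The members above 50 made up 26.8% to 32.7% of the set, against 63.0% to 65.1% of the 235 miRNAs numbered below 400. The difference averaged -34.4 ± 1.94 percentage points (SD, n = 4 arrays) and was negative on 4 of 4 arrays. An exact two-sided sign-flip permutation test over the 4 arrays gave p = 0.125, which is the smallest it can give with n = 4. The 4 arrays are different conditions that carry the same probes and are not replicates. This p, and that for the viral probes below, therefore covers no spread between probes or between samples of a condition. Of the 146 viral probes, 28.1% to 36.3% were above 50, and the difference of the late-discovered set averaged -2.26 ± 2.79 points (SD, n = 4 arrays). It was negative on 3 of 4 arrays (exact permutation p = 0.25), within the spread between arrays. The human miRNAs numbered between 400 and the start of the range lay at 34.1% to 36.4% and those numbered beyond it at 34.2% to 41.9%, and the late-discovered set was below both on 4 of 4 arrays. Of the 7 negative controls, 1 exceeded 50 on 3 of the arrays, with a highest value of 65.5, and none on the shRNA-Ascl2/LS174T array.

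**Figure D1:**
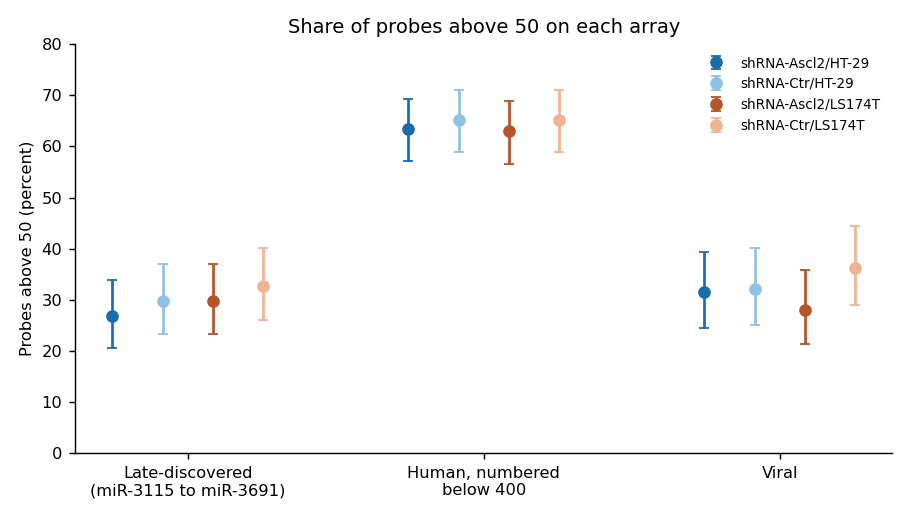
Percent of probes with a background-subtracted intensity above 50 on each of the 4 arrays, for the late-discovered miRNAs (168), the human miRNAs numbered below 400 (235) and the viral probes (146). Points are single arrays and bars are 95% Wilson intervals over probes; the late-discovered set lies between 26.8% and 32.7% and the set numbered below 400 between 63.0% and 65.1%.

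The members that were detected were dimmer than detected miRNAs of low number. Intensities of different probes are not amounts, since probes differ in how well they bind, so the sets are given as distributions. Among members above 50, the median intensity was 179 with shRNA-Ascl2 and 211 with shRNA-Ctr in HT-29 cells, and 199.9 in shRNA-Ascl2/LS174T and 188 in shRNA-Ctr/LS174T cells. For the miRNAs numbered below 400, these medians were 1138 and 1283 in HT-29 and 1057 and 325 in LS174T, in the same order of vectors. Over the arrays, they were 168 to 196 for human miRNAs numbered between 400 and the range and 179 to 243 for those beyond it. Star forms had medians of 154 to 183 and viral probes of 126.5 to 183, so this brightness was not particular to the members. Above 1000 were 12 members with shRNA-Ascl2 and 9 with shRNA-Ctr in HT-29 cells, and 8 with shRNA-Ascl2 and 9 with shRNA-Ctr in LS174T cells. Of the set numbered below 400 these counts were 78, 87, 77 and 36 in the same order. Across the set as a whole, the median lay at background, between 8.38 and 19.1.

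The array of shRNA-Ctr/LS174T cells stood apart from the other 3, which bears on every LS174T ratio. After scaling, the spike-in controls, synthetic RNAs added to each sample, had a median ratio of shRNA-Ascl2 over shRNA-Ctr of 8.60 in LS174T (37 of 40 past 2-fold), against 1.03 in HT-29 (0 of 46). Probes for the miR-200 family of epithelium (miR-200a, miR-200b, miR-200c, miR-141 and miR-429) were above 50 on all 4 arrays, with a summed intensity of 139238 to 189801 on the other 3 arrays and 21014 in shRNA-Ctr/LS174T cells. The colonic miR-192 and miR-194 were above 50 on all 4 arrays, and the 3 colonic markers summed to 1125 in shRNA-Ctr/LS174T cells, against 15431 to 21983 elsewhere. Of 6 markers of blood cells, 6 were above 50 in shRNA-Ctr/LS174T cells and 3 on each other array, with sums of 1494 to 2101 on all arrays. Of 5 markers of stroma and endothelium, 1 or 2 were above 50, with sums of 100 to 187, and miR-145 was at 5.5 or less on all 4 arrays. In both lines, the signal depended on position: the landmark controls of blocks 19 to 36 had 0.595 times the signal of blocks 1 to 18 in shRNA-Ascl2/HT-29 and 1.29 times in shRNA-Ctr/HT-29 cells. In LS174T, these values were 1.05 with shRNA-Ascl2 and 0.681 with shRNA-Ctr. Every member has spots in both block ranges, and ratios by range are given for some of them. The part of these differences in the results was not tested.

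The 41 members above 50 on all 4 arrays kept much the same order of intensity on 3 arrays. Across them, Spearman's rho was 0.92 to 0.96 between pairs of the arrays other than shRNA-Ctr/LS174T, and 0.77 to 0.80 between each of these and shRNA-Ctr/LS174T. These are descriptions over probes of 1 design, which share their binding strength on every array. On a log2 scale, a member spanned a median of 1.23 between its lowest and highest scaled array (range 0.26 to 4.27), and of 0.62 over the 3 arrays without shRNA-Ctr/LS174T (range 0.10 to 2.62). After scaling, the shRNA-Ctr/LS174T array was the highest for 26 of the 41 and the lowest for 8. The steadiest was miR-3149, which spanned 0.26, followed by miR-3613-3p, which spanned 0.53.

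**Figure D2:**
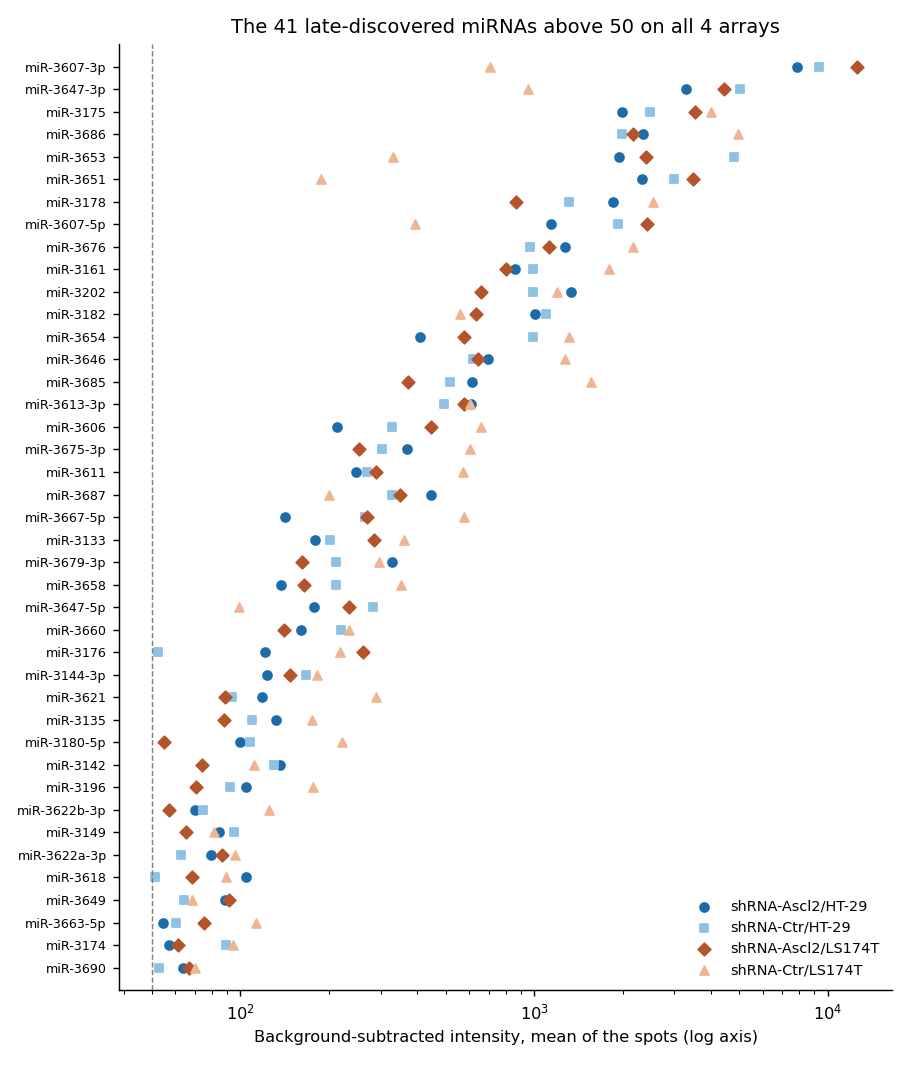
Background-subtracted intensity (log axis) of the 41 late-discovered miRNAs above 50 on all 4 arrays, ordered by their mean, with 1 symbol per array. The symbols of shRNA-Ctr/LS174T cells lie to the left of the others for the snoRNA-linked miR-3607-3p, miR-3647-3p and miR-3651 and for miR-3653; the intensities drawn are not scaled between arrays.

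The 8 brightest members by scaled intensity were miR-3607-3p, miR-3647-3p, miR-3175, miR-3686, miR-3653, miR-3651, miR-3178 and miR-3607-5p. miR-3607-3p reached 7843 ± 1508 (SD over its 4 spots, a technical spread) in shRNA-Ascl2/HT-29 and 9349 ± 2507 in shRNA-Ctr/HT-29 cells, and 12597 ± 2321 with shRNA-Ascl2 and 709 ± 129 with shRNA-Ctr in LS174T cells. miR-3175 was at 1989 with shRNA-Ascl2 and 2474 with shRNA-Ctr in HT-29 cells, and at 3522 with shRNA-Ascl2 and 4011 with shRNA-Ctr in LS174T cells. The arrays of miR-3607-3p fall into 3 high ones and 1 low one, while those of miR-3175 differed by less than 2-fold within a line. miR-3686 was at 2354 with shRNA-Ascl2 and 1997 with shRNA-Ctr in HT-29 cells, against 2163 with shRNA-Ascl2 and 4941 with shRNA-Ctr in LS174T cells, the last being the highest value of any member on its array.

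Overlap with other small RNA genes could be looked up only for the 132 members with a gene entry, which miR-3653 among others lacked. RefSeq ties 5 members to snoRNA genes: miR-3651 overlaps SNORA84, MIR3607 is listed as another name of SNORD138 on chromosome 5 and MIR3647 as another name of SNORD111B on chromosome 16. All 5 probes were more than 2-fold higher in shRNA-Ascl2 cells of LS174T after median scaling, but with spike-in scaling 3 of them (miR-3607-5p, miR-3647-3p and miR-3647-5p) had ratios below 1. In HT-29, their ratios of shRNA-Ascl2 over shRNA-Ctr were 0.65 to 0.92, with 0 of 5 past 2-fold over all spots. Within blocks 19 to 36 alone, miR-3647-3p was at 0.40 and miR-3607-5p at 0.47, both past 2-fold lower, against 0.82 and 0.71 within blocks 1 to 18. In LS174T, they were 2.32 to 17.98 with a median of 6.02, and 5 of 5 were past 2-fold. The 18 snoRNA control probes above 50 on both arrays of a line had median ratios of 0.956 in HT-29 (0 higher and 1 lower past 2-fold) and 4.02 in LS174T (13 higher and 1 lower). miR-3651 was at 2322 ± 206 with shRNA-Ascl2 and 2992 ± 1106 with shRNA-Ctr in HT-29 cells, and at 3474 ± 1051 with shRNA-Ascl2 and 188 ± 61.6 with shRNA-Ctr in LS174T cells (SD over 4 spots). miR-3647-3p was at 3296 with shRNA-Ascl2 and 5037 with shRNA-Ctr in HT-29 cells, and at 4437 with shRNA-Ascl2 and 949 with shRNA-Ctr in LS174T cells. For each of the 5 probes, shRNA-Ctr/LS174T was the lowest of the 4 arrays.

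In HT-29, 53 members were above 50 on the brighter array and could be compared, and 12 of them (22.6%, Wilson interval 13.5 to 35.5) differed at least 2-fold between shRNA-Ascl2 and shRNA-Ctr cells. Of these, 4 were higher and 8 lower in shRNA-Ascl2/HT-29 cells (7.55% and 15.1%), while 4.17% of all human miRNAs compared were higher and 8.51% lower. Each ratio sets 1 array against 1 array, so no p was computed. A probe whose dim side was at or below 0 counts as past 2-fold, and with values below 50 raised to 50, 3 rises and 4 falls stayed past it. Over all human miRNAs compared in HT-29, 16 of the 24 rises and 34 of the 49 falls did so. The same call was made in both block ranges for 0 of the 4 rises and for 4 of the 8 falls (miR-3654, miR-3146, miR-3666 and miR-3650). Over all human miRNAs compared in HT-29, this held for 9 of the 24 rises and for 25 of the 49 falls.

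After median scaling, miR-3654 was at least 2-fold lower in shRNA-Ascl2 cells of both lines, the only member of which this held. With spike-in scaling, its LS174T ratio was 0.05, but 50 of the 58 members compared in LS174T were then lower. Being the only such member thus holds for median scaling. It was at 409 ± 96.9 with shRNA-Ascl2 and 994 ± 72.8 with shRNA-Ctr in HT-29 cells (SD over 4 spots), a scaled ratio of 0.45, with 0.42 within blocks 1 to 18 and 0.45 within the later blocks. In LS174T, it was 578 ± 148 in shRNA-Ascl2 and 1312 ± 133 in shRNA-Ctr cells, a ratio of 0.43, with 0.52 and 0.32 in the same block ranges. The spots of the vectors did not overlap in either line: the highest of shRNA-Ascl2/HT-29 was 538 and of shRNA-Ascl2/LS174T 706, against a lowest of 899 with shRNA-Ctr in HT-29 and of 1188 with shRNA-Ctr in LS174T cells. Spots of an array are technical repeats. How many of all probes were separated in this way was not counted. In the model over all 4 arrays described below, it had the smallest p of the members, with a log2 difference of -1.15 ± 0.41 (SE) and an adjusted p of 0.97 in limma.

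The largest fall in HT-29, by its bound, was that of miR-3146, which was above 50 on 1 array of each line. It was at 37 ± 8.6 in shRNA-Ascl2/HT-29, with spots of 26 to 47, and at 655 ± 269 in shRNA-Ctr/HT-29 cells, with spots of 422 to 914. In LS174T, it was at 305 ± 58.9 in shRNA-Ascl2 cells, with spots of 239 to 378, and at 34.5 ± 2.6 in shRNA-Ctr cells, with spots of 32 to 38. It was therefore at least 11.97-fold lower in shRNA-Ascl2/HT-29 cells and, after median scaling, at least 5.93-fold higher in shRNA-Ascl2/LS174T cells, each against its control. The bounds take the dim array as 50, the limit of detection. With spike-in scaling, the LS174T ratio was 1.02, or 0.70 with the dim array at 50, so that this rise was lost.

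miR-3666 had the same pattern at a lower signal. It was at -5.5 ± 6.4 with shRNA-Ascl2 and 181 ± 45 with shRNA-Ctr in HT-29 cells, which is at least 3.31-fold lower. In LS174T, it was at 147 ± 30.9 in shRNA-Ascl2 and -1 ± 6.4 in shRNA-Ctr cells, which is at least 2.86-fold higher after median scaling. With spike-in scaling, it was at least 0.34 times the control, a lower bound that gives no direction. The dim array was taken as 50 in both. Since its control was below 0, miR-3666 still counted as a rise with spike-in scaling. The 4 spots lay at 117 or more on both bright arrays and at 5 or less on both dim ones.

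miR-3666 is 1 of 3 members whose seed is that of a miRNA numbered below 400, the others being miR-3132 and miR-3118, which stayed below 50 on all arrays. Among the RefSeq sequences used that also have a probe on the array, its seed is shared with miR-130b-3p, miR-301a-3p, miR-301b-3p, miR-454-3p and miR-4295. Other miRNAs may share this seed, since the list need not be complete. The sequence of miR-3666 is shown again beside the miRNAs of this family with the brightest probes, as an example of how far they match.
hsa-miR-3666: cAGUGCAAguguagaugccga
hsa-miR-301a-3p: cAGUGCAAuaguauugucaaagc
hsa-miR-130b-3p: cAGUGCAAugaugaaagggcau
Counted without gaps from the 5′ end, miR-301a-3p was identical to it at 13 of 21 positions and miR-130b-3p at 12. They lie at chr17:59151149-59151171 (minus strand) and chr22:21653354-21653375 (plus strand). The probe for miR-301a was at 1717 with shRNA-Ascl2 and 5069 with shRNA-Ctr in HT-29 cells, a ratio of 0.37, and at 1008 with shRNA-Ascl2 and 198 with shRNA-Ctr in LS174T cells, a ratio of 4.94. For miR-130b, the ratios were 0.53 in HT-29 and 5.40 in LS174T, and for miR-301b 0.49 and 3.17. The probe for miR-454 was at 229 with shRNA-Ascl2 and 589 with shRNA-Ctr in HT-29 cells, and at 151 with shRNA-Ascl2 and 30.5 with shRNA-Ctr in LS174T cells. After median scaling, these 4 probes were lower in shRNA-Ascl2/HT-29 and higher in shRNA-Ascl2/LS174T cells than in their controls. A rise of at least 2-fold in LS174T was also seen for 92 of the 168 miRNAs numbered below 400, and with spike-in scaling the LS174T ratios were 0.64 for miR-130b, 0.59 for miR-301a, 0.38 for miR-301b and 0.57 for miR-454. miR-4295 was at 0.5 or less on all arrays. How far the probe of miR-3666 binds these miRNAs was not tested.

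**Figure D3:**
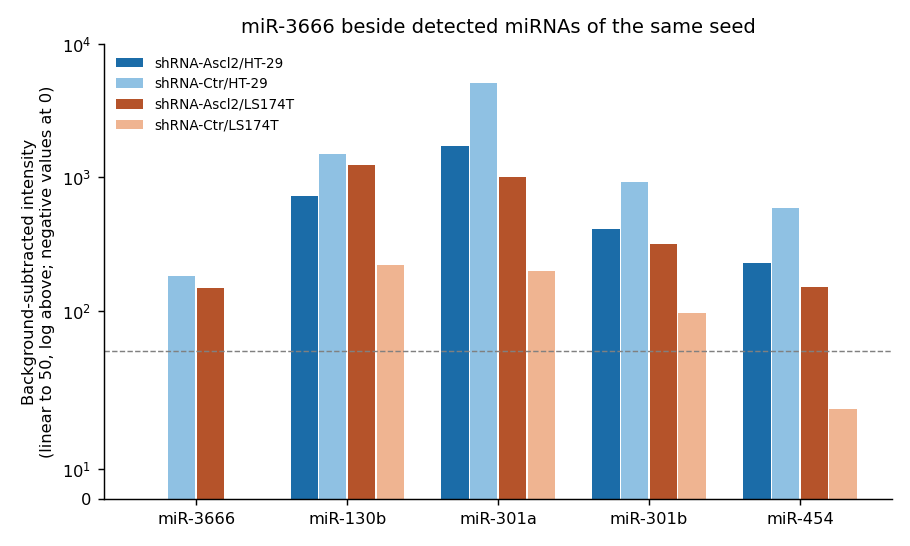
Background-subtracted intensity of miR-3666 and of the detected miRNAs with the same seed on the 4 arrays; the axis is linear up to 50 (dashed line) and logarithmic above it, and negative values are drawn at 0. As drawn, without scaling between arrays, each of the 5 was lower in shRNA-Ascl2/HT-29 than in shRNA-Ctr/HT-29 cells, and higher in shRNA-Ascl2/LS174T than in shRNA-Ctr/LS174T cells. With spike-in scaling, the LS174T ratios of miR-130b, miR-301a, miR-301b and miR-454 are below 1, and miR-3666 has only a lower bound of 0.34.

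Among the other falls in HT-29, miR-3653 was at 1944 ± 1883 in shRNA-Ascl2 and 4800 ± 653 in shRNA-Ctr cells, a ratio of 0.44. This ratio differed between the block ranges, being 0.68 within blocks 1 to 18 and 0.09 within the later ones, where the spots of shRNA-Ascl2/HT-29 were at 481 and 238 against 4060 and 2998 in the first range. miR-3119 was at 29.5 with shRNA-Ascl2 and 75.75 with shRNA-Ctr in HT-29 cells, with its dim side below the limit. In the same order of vectors, miR-3650 was at -97.25 and 68.75, miR-3193 at 20.25 and 58.25, and miR-3667-3p at -10.75 with shRNA-Ascl2 and 60.5 with shRNA-Ctr in HT-29 cells. The mean of miR-3650 with shRNA-Ascl2 came from spots of 16, -434, 11 and 18. The bright side of these 4 was at 75.75 or less, and with values below 50 raised to 50 none of them was past 2-fold.

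Of the 4 rises in HT-29, miR-3125 rested on 1 spot. Its mean of 5181 in shRNA-Ascl2/HT-29 cells came from spots of 26, 20654, 27 and 18, and it was at 36.5 in shRNA-Ctr/HT-29 cells. With the median of the spots, its ratio was 0.81, so it was not higher. miR-3176 was at 121.5 ± 44.9 with shRNA-Ascl2 and 52.25 ± 48.5 with shRNA-Ctr in HT-29 cells, a ratio of 2.54, with 3.52 within blocks 1 to 18 and 1.68 within the later ones. miR-3618, whose hairpin lies in DGCR8, the partner of Drosha, was at 104.75 with shRNA-Ascl2 and 51 with shRNA-Ctr in HT-29 cells, a ratio of 2.25, with 3.10 within blocks 1 to 18 and 1.31 within the later ones. miR-3126-5p was at 71.5 with shRNA-Ascl2 and 35.5 with shRNA-Ctr in HT-29 cells, and with its dim side raised to 50 it was 1.56-fold higher, not past 2-fold.

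In LS174T, 29 of 58 members compared (50%, Wilson interval 37.5 to 62.5) differed at least 2-fold, 9 being higher and 20 lower in shRNA-Ascl2 cells. These are 15.5% and 34.5%, while 28.8% of all human miRNAs compared were higher and 25.4% lower in shRNA-Ascl2/LS174T cells. Of the miRNAs numbered below 400, 92 of 168 were higher and 25 lower, and of the viral probes 2 of 55 were higher and 29 lower. The median log2 ratio, with values raised to 50, was -0.51 for the late-discovered set, 1.11 for the set numbered below 400, -0.89 for the viral probes and -0.19 for all human miRNAs. The split depended on the scaling: 31.0% of the 29 calls were higher after median scaling, but scaled by the spike-in controls, 4 members were higher and 50 lower (7.41% higher), the ratios being shifted by -3.07 on the log2 scale. The 4 were miR-3607-3p, miR-3651, miR-3666 and miR-3667-3p, of which the last 2 count only because their control was at or below 0, and with values below 50 raised to 50, 2 of the 4 were past 2-fold.

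The 9 members higher in shRNA-Ascl2/LS174T cells after median scaling were the 5 tied to snoRNA genes, miR-3653, miR-3146, miR-3666 and miR-3667-3p. For miR-3653 and miR-3667-3p, which had no gene entry, an overlap with a snoRNA gene could not be looked up. The ratios were 17.98 for miR-3651, 17.3 for miR-3607-3p, 7.07 for miR-3653, 6.02 for miR-3607-5p, 4.54 for miR-3647-3p and 2.32 for miR-3647-5p, all with both arrays above 50. miR-3653 was at 2406 ± 772 with shRNA-Ascl2 and 331 ± 111 with shRNA-Ctr in LS174T cells. miR-3667-3p was at 50.25 with shRNA-Ascl2 and -18.5 with shRNA-Ctr in LS174T cells, so that it barely passed the limit and no fold is given. The same call was made in both block ranges for 7 of the 9, against 159 of the 177 rises over all human miRNAs.

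The 20 members lower in shRNA-Ascl2/LS174T cells spanned the range of intensity. The largest falls with both arrays above 50 were those of miR-3685, with 371 ± 21.6 in shRNA-Ascl2 and 1562 ± 157 in shRNA-Ctr cells (ratio 0.23), and of miR-3180-5p, with 54.75 and 221.25 (ratio 0.24). miR-3621 followed with 88.75 and 289 (ratio 0.30), then miR-3178 with 867 ± 148 and 2539 ± 235 (ratio 0.33), miR-3196 with 70.75 and 177 (ratio 0.39) and miR-3675-3p with 254 and 604 (ratio 0.41), the shRNA-Ascl2 value of LS174T standing before that of shRNA-Ctr. Several of these are rich in G and C, with 88.2% in miR-3178, 88.9% in miR-3196 and 80% in miR-3621, but miR-3685 had 45.5%. Over the 38 members compared in LS174T that have a sequence, Spearman's rho between GC content and ratio was -0.14, a description over probes of 1 pair of arrays. Where the dim side was below the limit, miR-3197 was at 18.5 in shRNA-Ascl2 and 92.25 in shRNA-Ctr cells (at least 1.90-fold lower), miR-3615 at 21.5 and 84, miR-3121 at 29.25 and 74.75, miR-3127 at 15.75 and 55.5 and miR-3162 at 8 and 52. The call was made in both block ranges for 14 of the 20, against 105 of the 156 falls over all human miRNAs.

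**Figure D4:**
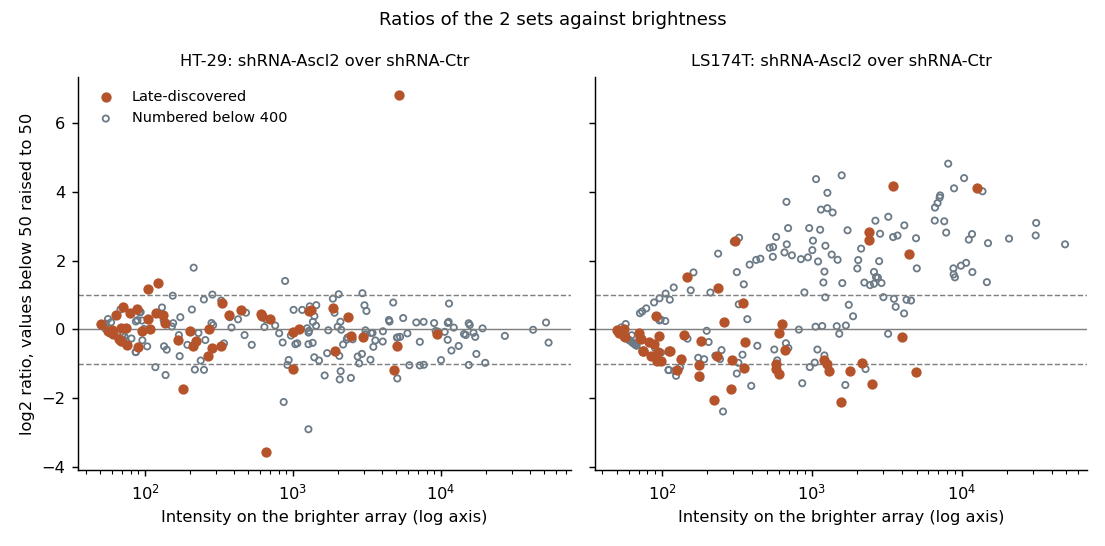
log2 ratio of shRNA-Ascl2 over shRNA-Ctr, with values below 50 raised to 50, against the intensity on the brighter array (log axis), for the late-discovered members and the miRNAs numbered below 400 in each line; dashed lines mark 2-fold. In LS174T, 74 of the 101 miRNAs numbered below 400 with a brighter array above 500 were at least 2-fold higher, against 5 of 20 members.

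After median scaling, the median size of the ratios in HT-29 was a little larger in the late-discovered set than among miRNAs numbered below 400. The order in HT-29 turned with the median of the spots or a limit of 100. In LS174T, the late-discovered set had the smaller median after median scaling. Spike-in scaling shifts the LS174T ratios by -3.07 on the log2 scale, and the order was not computed with it. The median absolute log2 ratio was 0.41 in HT-29, against 0.35 for the set numbered below 400, and 0.83 in LS174T, against 1.35. The SD of the log2 ratio in HT-29 was 1.204, against 0.65, and includes the single bright spot of miR-3125. Within a class of intensity, the median absolute log2 ratio in HT-29 was 0.22 and 0.27 for probes whose brighter array was between 50 and 100, 0.47 and 0.49 between 100 and 500, and 0.46 and 0.34 above 500, the late-discovered set being the first value of each pair. In LS174T, the same values were 0.29 and 0.36, 0.91 and 1.12, and 1.21 and 2.02. Past 2-fold in LS174T above 500 were 14 of 20 members (5 higher, 9 lower) and 78 of 101 miRNAs numbered below 400 (74 higher, 4 lower). The spots of a detected member had median coefficients of variation of 11.3% to 31.8% over the classes of intensity and arrays, against 13.9% to 34.0% for the miRNAs numbered below 400. The ratios of the members in the 2 block ranges had a Pearson correlation of 0.30 in HT-29 (35 members above 50 throughout) and 0.89 in LS174T (42 members), given as a description. For the miRNAs numbered below 400, it was 0.22 in HT-29 (129 probes) and 0.86 in LS174T (128 probes).

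Between the lines, 52 members could be compared in both. After median scaling, 4 of these were called lower in shRNA-Ascl2/HT-29 and higher in shRNA-Ascl2/LS174T cells (miR-3653, miR-3146, miR-3666 and miR-3667-3p). With the same scaling, 1 was lower in both (miR-3654), and 0 were higher in both or changed the other way. With values below 50 raised to 50, miR-3667-3p had log2 ratios of -0.15 in HT-29 and -0.03 in LS174T, and with spike-in scaling the LS174T ratio of miR-3653 was 0.84. For these the opposite direction depends on the setting, as it does for miR-3146. For miR-3666, spike-in scaling leaves only a lower bound of 0.34 in LS174T, which gives no direction. Of 536 human miRNAs compared in both lines, 26 were lower in HT-29 and higher in LS174T, 4 the other way, 4 lower in both and 2 higher in both. No member was above 50 on both arrays of HT-29 and at or below it on both of LS174T, against 8 of the 235 miRNAs numbered below 400. The reverse held for 1 of the 168 members and for 5 of the 235 miRNAs numbered below 400. The member was miR-3156, with 16.25 with shRNA-Ascl2 and 34.75 with shRNA-Ctr in HT-29 cells, against 53.75 with shRNA-Ascl2 and 99 with shRNA-Ctr in LS174T cells.

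**Figure D5:**
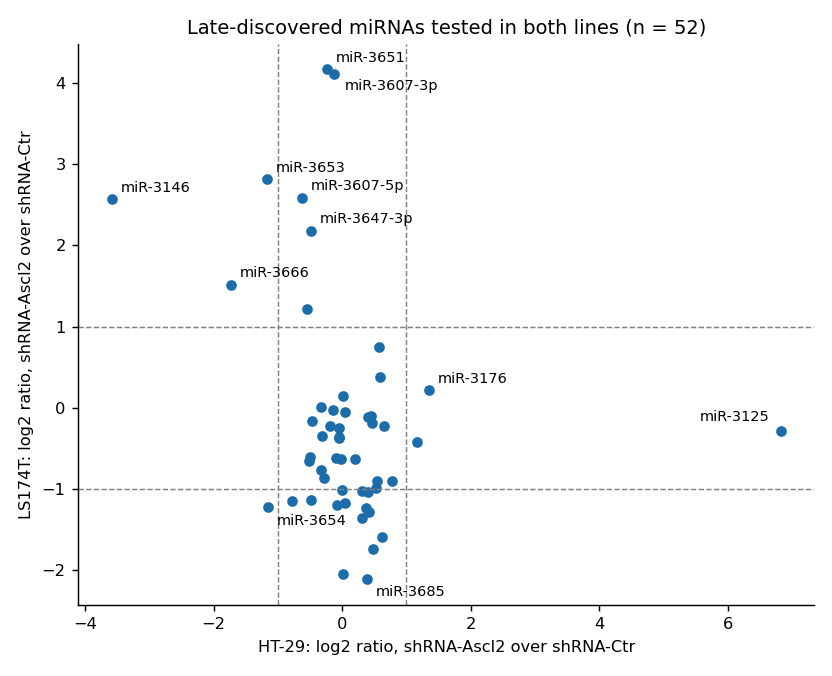
log2 ratio of shRNA-Ascl2 over shRNA-Ctr in HT-29 (horizontal) and LS174T (vertical) for the 52 members compared in both lines, with values below 50 raised to 50; dashed lines mark 2-fold. After median scaling, as drawn, miR-3146, miR-3666 and miR-3653 lie in the upper left, miR-3654 in the lower left, and miR-3125, far to the right, rests on 1 spot.

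Changes shared by the lines were sought with limma over all 4 arrays, with cell line as a block. Of the 713 named miRNA probes above 50 on at least 1 array, 0 passed an adjusted p under 0.05 (0%), and 0 had an unadjusted p under 0.05. All 59 members in the fit had an adjusted p of 0.97 or more. The next smallest p was that of miR-3667-5p, whose log2 difference was -0.92 ± 0.41 (SE), and the smallest of a positive difference that of miR-3687, at 0.70 ± 0.42. The fit has 1 residual degree of freedom, the interval of miR-3654 ran from -2.47 to 0.17, and those of all 59 members reached past 2-fold on at least 1 side.

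For the difference between HT-29 and LS174T, with the vector as a block, 0 of the same 713 probes passed the adjusted threshold (0%), and 35 had an unadjusted p under 0.05. Among the 59 members, 1 did: miR-3176 had a log2 difference of HT-29 minus LS174T of -1.75 ± 0.49 (SE), with an adjusted p of 0.85 in limma. It was at 121.5 with shRNA-Ascl2 and 52.25 with shRNA-Ctr in HT-29 cells, against 261 with shRNA-Ascl2 and 218.75 with shRNA-Ctr in LS174T cells, so that both HT-29 arrays lay below both LS174T arrays. The member was picked by its p from these same values, so their order adds no support. Its value in shRNA-Ctr/HT-29 cells was just above the limit. miR-3119 followed with -1.32 ± 0.42 and miR-3606 with -1.25 ± 0.41. The difference was negative for most members, with 17 of 59 above 0 and a median of -0.31, against -0.19 over all 713 probes. How many of all probes were above 0 was not counted. The LS174T side includes the shRNA-Ctr/LS174T array, which after scaling was the highest for 26 of the 41 members above 50 on all 4 arrays. Its part in these differences was not tested.

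For 19 hairpins, both arms were on the array. Both arms were above 50 on all 4 arrays for miR-3607 and miR-3647 only. For 6 hairpins, among them miR-3613, miR-3675, miR-3679 and miR-3144, the 3p arm was above 50 on all 4 arrays and the 5p arm on none. For miR-3180 and 1 other, it was the 5p arm that was above 50 on all 4 arrays and the 3p arm on none. miR-3613-3p was at 611 with shRNA-Ascl2 and 492 with shRNA-Ctr in HT-29 cells, and at 579 with shRNA-Ascl2 and 604 with shRNA-Ctr in LS174T cells, while miR-3613-5p stayed at 5 or less. For miR-3667, the 5p arm was above 50 on all 4 arrays and the 3p arm on 2: in LS174T, miR-3667-5p was at 269 with shRNA-Ascl2 and 578 with shRNA-Ctr in LS174T cells, and miR-3667-3p at 50.25 and -18.5, too close to the limit for a direction.

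Members that were detected differed little in base composition from those that were not. Members with a sequence had a median GC content of 47.8% where they were above 50 on all 4 arrays (27 members), 51.2% where on 1 to 3 (12 members) and 52.3% where on none (66 members). Over all 105, Spearman's rho with the mean intensity was 0.05 for GC content and -0.11 for length, given as descriptions. The seed of miR-3196 is also that of miR-3180-3p, which was at 4.75 or less on all arrays while miR-3196 was above 50 on all 4.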

How the data were processed

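Total RNA of 4 stable transfectants was hybridised to 1-colour Exiqon miRNA arrays, and the authors extracted spots with GenePix Pro. The deposited scanner tables hold linear intensities of 12312 spots per array. A second deposited table holds, per probe, a ratio of its intensity to 1 factor per array, used as an alternative. Lists of up and down miRNAs with the authors' own fold changes were not used, and no column of another sample was found (0). Members and lists were chosen with earlier results of these data known.

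Background-subtracted spots were averaged per probe (4 spots, 8 for miR-3202). Within a line, intensities were scaled by the array's median of named miRNA probes above 50 on both arrays (544 probes in HT-29, 507 in LS174T; factors 275.25, 301.125, 300 and 291.5). Probes whose brighter array exceeded 50 were compared at 2-fold. limma 3.58.1 (R 4.3.3) was fitted on log2 of intensities scaled over all 4 arrays and raised to at least 50, with line and vector as terms, and adjusted by Benjamini-Hochberg over 713 probes. The number of arrays limits the precision. Calling and model were tested on simulated data. The test of calling planted changes only in probes well above the limit, and that of the model planted only large changes. Calls with a dim side or a single outlying spot were not covered. Named by rule were the 8 brightest members, per line up to 6 rises and 6 falls with both arrays above 50 and up to 5 of each with a dim side at or below it, members past 2-fold in both lines or detected in 1 line only, up to 8 hairpins with both arms, and members with the seed of a miRNA numbered below 400 or in another small RNA gene. miR-3149, miR-3165, miR-3201, miR-3193, miR-3606 and miR-3687 were named after their values were seen. Alternatives changed the spot summary, limit, block range, background, scaling, source table, fold and filter.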

Additional observations from a re-analysis of the deposited data

Results flagged for a closer look

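After median scaling, 4 members were called lower in shRNA-Ascl2/HT-29 and higher in shRNA-Ascl2/LS174T cells than in their controls, and with 1 array per condition the difference between the lines was not tested. The log2 ratio in HT-29 minus that in LS174T, with values below 50 raised to 50, was -6.15 for miR-3146 (-3.58 and 2.57), -4.00 for miR-3653 (-1.17 and 2.82), -3.24 for miR-3666 (-1.73 and 1.52) and -0.11 for miR-3667-3p (-0.15 and -0.03), HT-29 given first in each pair. Both values of miR-3667-3p are negative, so its opposite calls rest on control or shRNA-Ascl2 values at or below 0. With spike-in scaling, the LS174T ratio was 0.84 for miR-3653, and with values raised to 50 it was 0.70 for miR-3146 and 0.34 for miR-3666. The values of miR-3146 and miR-3666 are lower bounds, since their control was raised to 50, and give no direction. All 4 rest on shRNA-Ctr/LS174T, the array on which the spike-in controls stood apart.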

How the results depend on the processing

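With a limit of 100, the share of members above it was 20.2% in shRNA-Ascl2/HT-29, 19.05% in shRNA-Ctr/HT-29, 18.5% in shRNA-Ascl2/LS174T and 21.4% in shRNA-Ctr/LS174T cells. In HT-29, the rises numbered 2 in blocks 19 to 36, 1 with normexp, 2 with the authors' table and 8 at 1.5-fold, and the falls 4 with a limit of 100 and 4 with normexp. In LS174T, the falls numbered 7 with normexp, 31 at 1.5-fold and 50 scaled by the spike-in controls, with which the rises numbered 4. Scaled in that way, 4 rises turned into ratios below 1, at 0.54 for miR-3647-3p, 0.27 for miR-3647-5p, 0.84 for miR-3653 and 0.71 for miR-3607-5p. miR-3125 in HT-29 had a ratio of 0.81 with the median of the spots, 0.85 in blocks 19 to 36 and 0.76 in the authors' table. The median absolute log2 ratio of the members minus that of miRNAs numbered below 400 in HT-29 was -0.0054 with the median of the spots, -0.0586 with a limit of 100 and 0.0332 with normexp. With normexp, 9.43% of members and 8.33% of the set numbered below 400 were past 2-fold in HT-29, and 25.9% and 54.2% in LS174T. The cause was not tested. Calls of the limma model at an adjusted p under 0.05 stayed at 0 under every alternative run for it. None of these used spike-in scaling, so how the model depends on it was not tested. Counts at an unadjusted p under 0.05 moved in limma. Over all probes, 0 for the vectors became 27 with no filter and 1 with normexp or values raised to 20. The 35 for the lines ranged from 18 (probes above 50 on all arrays) to 48 (no filter). Among members, the 1 count for the lines, miR-3176, became 0 with normexp, quantile normalization or values raised to 20, and with no filter 7 members passed for the lines and 4 for the vectors. In this model, the line as a block sets the vectors against each other within a line, with 1 residual degree of freedom. No LS174T ratio can be had without the shRNA-Ctr/LS174T array.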
